A study of Homo sapiens with 16 samples.

Results

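The regions described here are peaks of chromatin immunoprecipitation and sequencing (ChIP-Seq) that lay just upstream of gene starts in HEK293T cells, a human embryonic kidney line. A peak was counted when its summit lay 1 to 1000 bp upstream, against the direction of transcription, of the nearest protein-coding gene start. No opposite-strand protein-coding start could lie within 1000 bp of the peak. The rule selected 2545 of the 9864 peaks in the 3 lists. Of these, 328 of 1468 were in the list from wild-type cells (22.3%, 95% exact binomial interval 20.2 to 24.6). In the POLK-/- list 642 of 2451 peaks were upstream (26.2%, 24.5 to 28.0), and in the DDX23-/- list 1575 of 5945 were (26.5%, 25.4 to 27.6).

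POLK encodes DNA polymerase kappa (Pol κ), a Y-family polymerase of translesion synthesis, and DDX23 encodes a DEAD-box RNA helicase of the spliceosome. The labels give the antibody as Polk for all 3 genotypes and no treatment. Cells labelled as lacking that target thus also gave a peak list, and the labels do not say whether a knockout line was 1 clone. The shared protocol names an anti-FLAG affinity gel, while no tag is listed for these cells, so the antigen cannot be fixed from the labels. By the labels each genotype had 2 antibody libraries, with titles that start with R_, and 2 titled as controls with no antibody label. The series also has 2 control libraries and 2 from cells with tagged Pol κ whose titles carry no R_, and none of these was used here. The labels do not say what R stands for. Each genotype had 1 peak list here, so no difference between genotypes had a replicate check, and every interval below covers the sampling of peaks only.

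Promoters of protein-coding genes are mostly GC-rich stretches where RNA polymerase II is loaded beside general and sequence-specific factors. RNA polymerase III transcribes small genes, which include those for transfer RNAs (tRNAs), U6 and 7SK RNA, and some of these sit close to protein-coding starts. A tRNA gene carries its promoter inside the transcribed part, as an A box and a B box bound by the factor TFIIIC, whereas the U6 and 7SK genes have upstream elements with a TATA box.

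Most of the strongest upstream peaks carried a sign of a small RNA gene, not always of the kinds above. Among the 10 members with the smallest p in each list, 9 in wild-type, 9 in POLK-/- and 9 in DDX23-/- carried at least 1 of 3 signs of a small RNA gene. The signs were a tRNA-type site in the 300 bp around the summit or an annotated small RNA gene under the peak. The remaining sign was a RefSeq small RNA gene within 2000 bp of the same gene's start, on its upstream side. Small RNA genes here also took in microRNA, small nucleolar and all small nuclear RNA genes. A sign thus does not by itself mark a gene of RNA polymerase III. The tRNA-type site was an A box (GCNNAGNNG) followed after 24 to 110 bases by a B box (GTTCNANNC) on the same strand, sought on both strands. The sequences below are from the GRCh37 genome, are written 5′ to 3′ on the strand of the site, and show the sites of 6 of the strongest members, with the A and B boxes in capitals. They lie at chr17:8022467-8022548 (plus strand) for ALOXE3, chr5:180648976-180649057 (minus strand) for TRIM41, chr19:33667957-33668039 (plus strand) for LRP3, chr17:37025542-37025622 (minus strand) for LASP1, chr16:22308455-22308545 (plus strand) for POLR3E and chr15:40886020-40886110 (minus strand) for KNL1. The annotation places the summits of all 6 in intergenic sequence upstream of the named gene.
ALOXE3: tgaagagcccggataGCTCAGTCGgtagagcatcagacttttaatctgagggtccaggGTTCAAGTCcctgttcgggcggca
TRIM41: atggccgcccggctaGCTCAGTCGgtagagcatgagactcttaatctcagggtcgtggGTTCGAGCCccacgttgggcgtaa
LRP3: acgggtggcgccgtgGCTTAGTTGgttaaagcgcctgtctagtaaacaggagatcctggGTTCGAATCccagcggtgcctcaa
LASP1: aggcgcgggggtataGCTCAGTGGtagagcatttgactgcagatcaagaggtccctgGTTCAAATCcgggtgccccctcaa
POLR3E: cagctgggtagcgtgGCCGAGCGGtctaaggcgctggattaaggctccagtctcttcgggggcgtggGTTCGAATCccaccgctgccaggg
KNL1: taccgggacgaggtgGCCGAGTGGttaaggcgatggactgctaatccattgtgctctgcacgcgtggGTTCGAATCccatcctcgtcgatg

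At PPEF1 and HMGN4 the same B box followed an A box that matched only a looser pattern (GNNNANNNG), which was added after the data were seen. These stretches lie at chrX:18693026-18693107 (minus strand) and chr6:26538276-26538357 (plus strand), and their capitals mark the looser A box and the B box. RefSeq names a valine tRNA gene near both genes.
PPEF1: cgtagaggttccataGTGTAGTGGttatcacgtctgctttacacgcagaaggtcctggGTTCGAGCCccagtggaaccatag
HMGN4: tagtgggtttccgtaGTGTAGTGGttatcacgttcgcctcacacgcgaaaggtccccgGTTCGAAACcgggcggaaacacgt

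TMEM259 and MED16 had peaks over U6 genes, and the peak upstream of GSTA4 lay over the 7SK gene. The 90 bases that precede each small gene are shown because the capitals, TTNAAATA or TATATA, are TATA-like letters, picked out after the stretches were read. They lie at chr19:1021431-1021520 (plus strand) before RNU6-2, chr19:893394-893483 (plus strand) before RNU6-9 and chr6:52860328-52860417 (plus strand) before RN7SK. RNU6-2 and RNU6-9 are 107 bases long and RN7SK is 331 bases long.
RNU6-2: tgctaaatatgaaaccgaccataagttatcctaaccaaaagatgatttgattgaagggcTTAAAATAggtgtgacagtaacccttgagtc
RNU6-9: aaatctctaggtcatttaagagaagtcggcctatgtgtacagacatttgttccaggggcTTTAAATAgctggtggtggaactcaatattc
RN7SK: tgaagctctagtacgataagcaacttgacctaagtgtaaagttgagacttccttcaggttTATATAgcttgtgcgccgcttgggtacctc

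For contrast, 3 strong members with no such sign are shown by 120 bases around the wild-type summit on the strand of the gene. FKBP2 encodes a peptidyl-prolyl isomerase of the endoplasmic reticulum, ZNF397 a zinc finger protein and CHUK a kinase of the NF-κB pathway. The stretches lie at chr11:64008279-64008398 (plus strand) for FKBP2, chr18:32820844-32820963 (plus strand) for ZNF397 and chr10:101989405-101989524 (minus strand) for CHUK, the last with its summit in an exon of the divergent noncoding gene CHUK-DT. Capitals mark matches on either strand to the letters GGGCGG of SP/KLF factors, CCGGAAG of ETS factors and CCAAT of NFY. The CHUK stretch held none of the 10 motifs searched.
FKBP2: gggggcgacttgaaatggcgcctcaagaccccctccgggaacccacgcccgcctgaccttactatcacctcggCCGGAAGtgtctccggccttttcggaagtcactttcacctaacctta
ZNF397: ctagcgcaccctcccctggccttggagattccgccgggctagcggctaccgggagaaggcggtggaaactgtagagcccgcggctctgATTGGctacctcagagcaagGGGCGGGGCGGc
CHUK: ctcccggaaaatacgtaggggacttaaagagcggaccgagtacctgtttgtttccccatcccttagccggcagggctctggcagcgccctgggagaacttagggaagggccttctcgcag

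Values are given as enrichment, the number of fragments piled at the summit over the local background of the peak caller, both on the scale of that list. Fragments and background were recovered from the deposited fold and p for all 2545 members. The peak at ALOXE3, an epidermal lipoxygenase gene, had an enrichment of 79.0 in wild-type, 153.5 in POLK-/- and 63.8 in DDX23-/-, the order in which values without a genotype are given below. RefSeq lists a lysine, a glutamine and a leucine tRNA gene beside its start. At KNL1, a kinetochore scaffold gene next to the serine tRNA gene TRS-GCT4-2, the enrichment was 72.6 in wild-type, 163.3 in POLK-/- and 81.5 in DDX23-/-. At POLR3E, which encodes a subunit of RNA polymerase III itself and lies next to the leucine tRNA gene TRL-AAG2-4, it was 88.3, 102.3 and 66.4. These 3 peaks were strongest in POLK-/-. Of the 16 members named by p, 9 were strongest in POLK-/-, 6 in DDX23-/- and 1 in wild-type. Each was picked by its p in 1 or more of the lists, so the tally is not independent of the choice and does not compare the lists. POLG, PPP6R3 and KNL1 came in by POLK-/- alone and MED16 and BCAR3 by DDX23-/- alone, and each was strongest there. H2BC5, by wild-type alone, and ZNF839, by DDX23-/- alone, were strongest in another list.

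The list with the highest value was the same by the deposited fold at 15 of the 16. The exception was PPEF1, a phosphatase gene next to the valine tRNA gene TRV-TAC1-2, which had an enrichment of 120.4 in wild-type, 73.6 in POLK-/- and 113.8 in DDX23-/- but deposited folds of 66.4, 55.5 and 76.9. LASP1, an actin-binding protein gene next to the cysteine tRNA gene TRC-GCA4-1, had 40.1, 47.6 and 78.9. TRIM41, a ubiquitin ligase gene beside a lysine and a valine tRNA gene, had 27.0, 46.6 and 63.2. HMGN4, a nucleosome-binding protein gene, was strongest in POLK-/-, and its summit moved between lists, from 313 bp upstream in wild-type and 297 bp in DDX23-/- to 860 bp in POLK-/-. Its enrichment was 70.9 in wild-type, 135.2 in POLK-/- and 46.3 in DDX23-/-, and RefSeq places both an arginine and a valine tRNA gene beside it.

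The small nuclear RNA genes did not share an order of the lists. At RNU6-2, upstream of the membrane protein gene TMEM259, the enrichment was 52.8 in wild-type, 74.4 in POLK-/- and 107.9 in DDX23-/-. At RNU6-9, upstream of the Mediator subunit gene MED16, it was 78.4, 53.0 and 112.7. At RN7SK, upstream of the glutathione transferase gene GSTA4, it was 71.3, 66.6 and 131.2, with deposited folds of 35.6, 44.8 and 75.4, so its order of wild-type and POLK-/- depended on the measure. All 3 were highest in DDX23-/-, as were LASP1 and TRIM41 beside tRNA genes. The summits at these 3 small genes lay within 44 bp of the start of the small gene in each list. GSTA4 is named because of its small gene and after its values were seen. TAF12, a TFIID subunit gene beside the minor-spliceosome RNA gene RNU11, had 32.1 in wild-type, 77.0 in POLK-/- and 73.0 in DDX23-/-.

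POLG, the gene of the mitochondrial DNA polymerase, lies next to the arginine tRNA gene TRR-TCG1-1 and had 32.2 in wild-type, 106.4 in POLK-/- and 46.0 in DDX23-/-. ZNF839, a zinc finger gene, had 77.2, 88.6 and 73.0. LRP3, a lipoprotein receptor-related gene whose peak covers an annotated miRNA and a tRNA-type site, had 40.4, 101.5 and 60.5. Among the 16 members named by p, 13 carried a sign in the wild-type list.

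The other 3 carried none. H2BC5, a replication-dependent histone H2B gene, had 74.2 in wild-type, 45.7 in POLK-/- and 130.7 in DDX23-/-, and its window held CCAAT and TATAAA letters. PPP6R3, a phosphatase regulatory subunit gene, had 36.6, 101.6 and 45.4. BCAR3, an adaptor protein gene, had 50.6, 50.7 and 72.3, and of the tRNA-type sites its window held only the looser one. That looser site spans the summit in each list. The GENCODE annotation used lists no tRNA genes and RefSeq neighbours were found by gene name only. Lack of a sign thus does not show that no tRNA gene lies there.

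**Figure D1:**
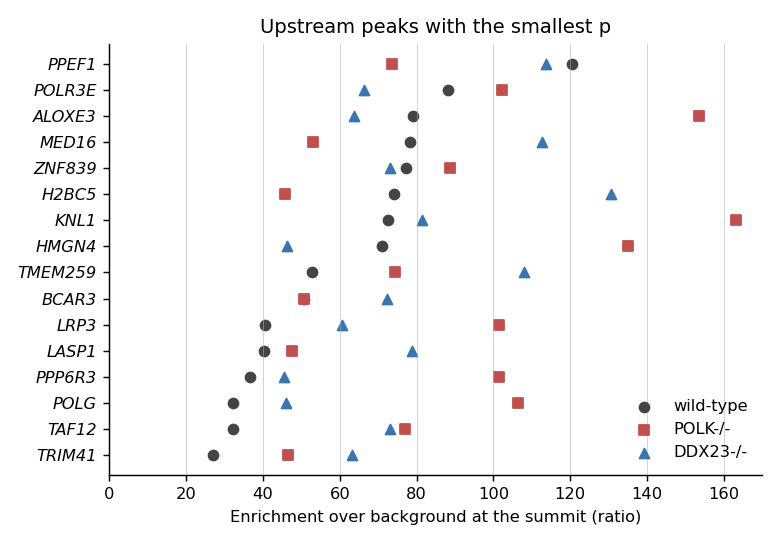
Enrichment over background at the summit (a ratio, linear axis from 0) of the 16 upstream peaks that were among the 10 smallest p of a list, by gene, with 1 point per list. Points spread between 27.0 at TRIM41 in wild-type and 163.3 at KNL1 in POLK-/-, and the 3 lists do not keep 1 order across the genes.

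Over all members, any small RNA sign was found at 42 of 328 in wild-type (12.8%), 50 of 642 in POLK-/- (7.79%) and 58 of 1575 in DDX23-/- (3.68%). Over all peaks of each list the shares were higher, at 16.5%, 11.8% and 6.16%. The numbers of members with a sign differed little while the lists grew, so the share fell with list length. RefSeq placed a tRNA gene within 2000 bp of the start, on its upstream side, at 40 of 19097 matched protein-coding genes (0.209%). Neighbours on the downstream side were not counted. Of these 40 genes, 27 had an upstream peak in wild-type, 27 in POLK-/- and 27 in DDX23-/-, and 24 had one in all 3 lists. Of all protein-coding genes, 1.62% had one in wild-type, 3.17% in POLK-/- and 7.71% in DDX23-/-.

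The tRNA-type site itself was in 20 wild-type (6.10%, 3.76 to 9.26), 24 POLK-/- (3.74%, 2.41 to 5.51) and 30 DDX23-/- members (1.90%, 1.29 to 2.71). It was in 0.968% of the 20152 windows of 300 bp just upstream of all protein-coding starts. At peaks whose summit lay downstream of a start the share was 1.63%, 1.11% and 0.918%, and over all peaks of a list it was 11.3%, 7.83% and 4.10%. The summit lay close to the A box, a median of 0.5 bases after its first base in wild-type, 0.5 bases before it in POLK-/- and 11.0 bases after it in DDX23-/-. Of the sites, 13 of 20, 16 of 24 and 20 of 30 were on the strand opposite to the gene. A RefSeq tRNA neighbour accompanied 15 sites in each list. In DDX23-/- the median enrichment of those 15 was 64.8, against 14.9 at the other 15.

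Members with a sign were stronger than the rest. Their median enrichment was 32.6 (95% order-statistic interval 27.0 to 40.2) against 15.5 (14.5 to 15.9) in wild-type. In POLK-/- it was 41.2 (28.7 to 53.0) against 10.3 (9.91 to 11.0), and in DDX23-/- 39.4 (24.6 to 53.5) against 10.6 (10.2 to 10.8). Among members below the median rank by p, a sign was found at 1.83% in wild-type, 1.88% in POLK-/- and 0.89% in DDX23-/-.

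Signs also went with distance from the start. In wild-type they were at 6 of 149 members with a summit 1 to 100 bp upstream (4.03%) and at 11 of 24 with a summit 501 to 1000 bp upstream (45.8%). In POLK-/- the same bins gave 1.77% and 25.0%, and in DDX23-/- 1.73% and 12.1%.

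**Figure D2:**
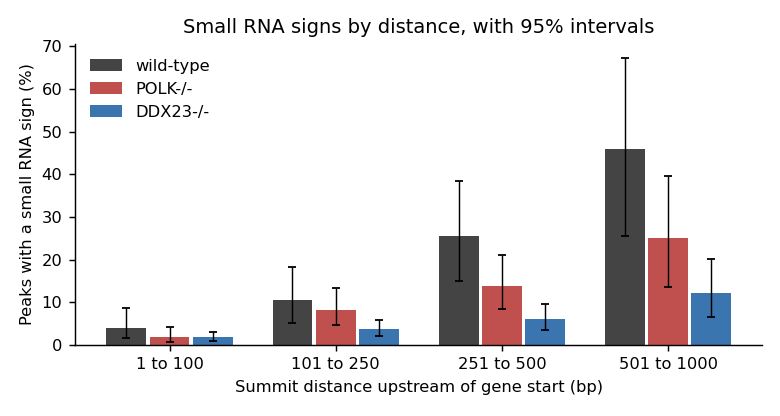
Share of upstream peaks (%) with any sign of a small RNA gene, by the distance of the summit upstream of the gene start in bp, for the 3 lists. Bars start at 0 and the lines are exact 95% binomial intervals; in wild-type the share runs from 4.03% in the nearest bin to 45.8% in the farthest.

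The bulk of the members sat close to the start. The median distance was 115 bp in wild-type (96 to 137), 118 bp in POLK-/- (107 to 135) and 108 bp in DDX23-/- (100 to 114). Summits within 100 bp made up 149 of 328 (45.4%), 282 of 642 (43.9%) and 752 of 1575 members (47.7%). Only 24 (7.32%), 48 (7.48%) and 99 (6.29%) lay over 500 bp away.

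Upstream peaks were the minority of peaks with a start on 1 side only. They were 43.3% of 758 such peaks in wild-type (39.7 to 46.9), 47.2% of 1361 in POLK-/- (44.5 to 49.9) and 44.6% of 3535 in DDX23-/- (42.9 to 46.2). The rest lay downstream of the start, at 15.9% of the wild-type list in the first 100 bp alone.

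**Figure D3:**
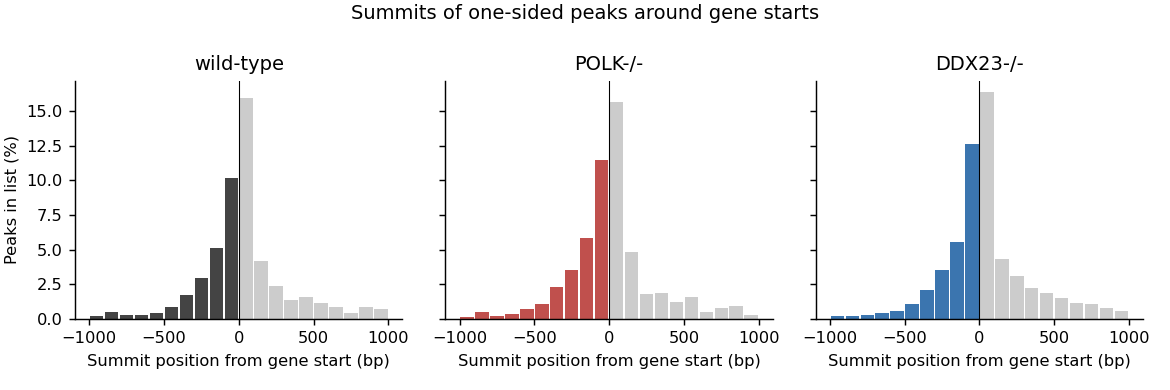
Peaks per 100 bp bin (% of the list) by summit position from the nearest protein-coding start in bp, negative upstream, for peaks with no opposite-strand start nearby. Coloured bars are the upstream peaks and grey bars the downstream ones; in each list both sides are highest in the 100 bp next to the start, at 10.1% upstream and 15.9% downstream in wild-type.

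The limit of 1000 bp fell in a sparse stretch. The last wild-type members inside it were PPEF1 at 930 bp (enrichment 120.4) and SPRED1 at 911 bp (20.9), and the first peaks outside were near MYNN at 1122 bp (53.9) and HJV at 1307 bp (44.1). In POLK-/- SON at 958 bp (5.77) and PPEF1 at 947 bp (73.6) were inside, and DPP9 at 1077 bp (11.1) and NEMF at 1113 bp (8.37) outside. In DDX23-/- EIF5B at 989 bp (7.24) and PLXNA2 at 976 bp (11.8) were inside, and NRN1 at 1014 bp (6.27) and LPIN2 at 1056 bp (10.6) outside. At the other limit the summits nearest a start were 2 bp away at BAD and SNTB2 in wild-type, 1 bp at ZNF286A and TRIM52 in POLK-/-, and 1 bp at RPL5 and DNAJC1 in DDX23-/-.

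The members were GC-rich, with a median of 66.0% GC in 300 bp around the summit in wild-type, 64.3% in POLK-/- and 66.3% in DDX23-/-. All windows before protein-coding starts had a median of 58.3%, but these lie upstream of the start, while member windows can run past it. The part of this difference in position was not tested. Downstream peaks were higher still, at 69.0%, 67.0% and 69.0%. The observed over expected CpG ratio of the members was 0.870, 0.834 and 0.849, against 0.65 for all windows.

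Although the rule kept out opposite-strand protein-coding starts, many members had a noncoding one nearby. An opposite-strand lncRNA start lay within 1000 bp of 115 wild-type (35.1%), 204 POLK-/- (31.8%) and 486 DDX23-/- members (30.9%). The shares at downstream peaks were 28.8%, 28.1% and 26.1%. Named cases were CHUK-DT, TFIP11-DT and POLG-DT.

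Letters of common promoter factors were more frequent at the members than before all starts. Member windows are centred on the summit and can run past the start, while the windows of all genes lie upstream of it. The part of this difference in position was not tested for any motif. The SP/KLF letters (GGGCGG) were at 69.5% of wild-type, 67.9% of POLK-/- and 74.5% of DDX23-/- members, against 50.4% of all windows. The ETS letters (CCGGAAG) were at 20.7%, 21.2% and 21.3%, against 9.54%. Those of NRF1 (GCGCANGCG) were at 13.7%, 15.9% and 15.2%, against 7.69%. These 3 motifs are GC-rich, as the members were, and the part of GC content in the difference was not tested.

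The NFY letters (CCAAT) were at 41.8%, 41.4% and 38.9%, against 36.9%, and were less frequent at downstream peaks, at 34.9%, 36.4% and 33.1%. The YY1 letters (AAGATGGCG) were at 4.88%, 3.43% and 3.49%, against 0.779% of all windows and 7.44%, 9.32% and 8.11% of downstream peaks. Windows of members can reach past the start, where those of all genes do not, and the part of this was not tested. The TATA letters (TATAAA) were the reverse, at 7.32%, 4.21% and 4.06% of members against 12.05% of all windows. The remaining motifs, CRE (TGACGTCA), E box (CACGTG), ZNF143 (ACTACAA) and octamer (ATGCAAAT), were each at 1.21% to 11.2% of members, against 1.84% to 8.06% of all windows. Both strands were searched and no motif contains another.

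**Figure D4:**
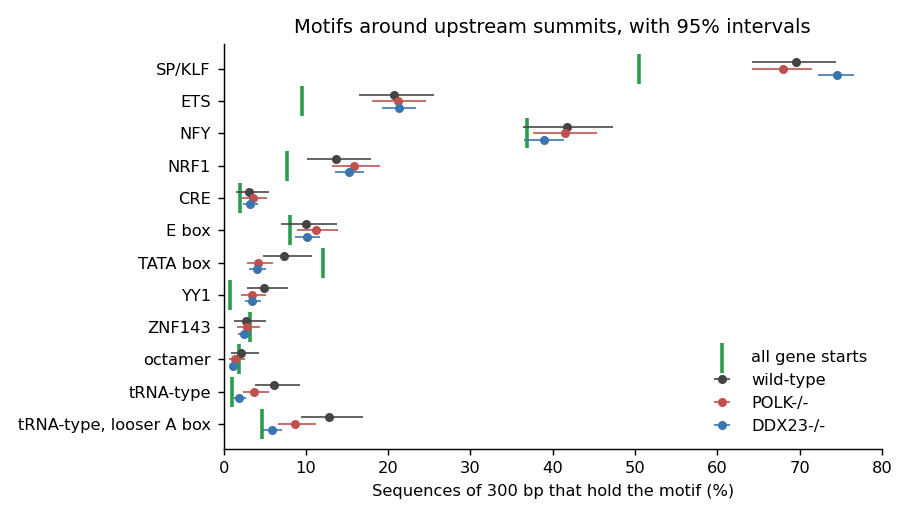
Share (%) of 300 bp windows around the summits of upstream peaks that hold each motif on either strand, with exact 95% binomial intervals, for the 3 lists. Green bars mark the share of the 20152 windows before all protein-coding starts; ETS letters stood at 20.7% to 21.3% of members against 9.54%.

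Members without a small RNA sign were led in wild-type by H2BC5, PPP6R3 and BCAR3, the last with the looser tRNA-type site. The next by p were HERPUD1, an endoplasmic reticulum stress gene, with 91.6 in wild-type, SPC24, a kinetochore gene, with 80.8, and FZD8, a Wnt receptor gene, with 78.5. These were named by the smallest p among members with no sign, a rule added after the data were seen. The HERPUD1 summit lay 23 bp upstream in wild-type and 3 bp in DDX23-/- but 8 bp downstream in POLK-/-, where the peak with an enrichment of 54.9 was not a member. SPC24 and FZD8 peaks had their summits downstream in both knockouts, at 27 and 51 bp for SPC24 and 3 bp in each for FZD8. JUND, an AP-1 transcription factor gene, was a member in all 3 lists, with 55.8 in wild-type, 49.9 in POLK-/- and 57.5 in DDX23-/-. FKBP2 had 40.7, 68.1 and 87.5, and CHUK had 28.6, 94.3 and 54.3.

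Most wild-type members had a peak in the other lists. Of 328, 269 overlapped a POLK-/- peak by 1 bp or more (82.0%, 77.4 to 86.0), against 76.9% of all wild-type peaks. A DDX23-/- peak overlapped 319 (97.3%, 94.9 to 98.7), against 92.7%. Both others overlapped 268 members and neither overlapped 8, and the matching shares of all wild-type peaks are not given here. Summits of the overlapping peaks differed by a median of 33 bp for POLK-/- and 35 bp for DDX23-/-. This shift was enough to change the side of the start. The POLK-/- partner was itself upstream for 221, downstream for 46 and bidirectional for 2.

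In the longer lists the shares in reverse were lower. Of 642 POLK-/- members, 267 overlapped a wild-type peak (41.6%, 37.7 to 45.5), against 45.5% of all POLK-/- peaks, and 604 a DDX23-/- peak (94.1%, 92.0 to 95.8), against 92.4%. Of 1575 DDX23-/- members, 314 overlapped a wild-type peak (19.9%, 17.989 to 21.997), against 22.6%, and 586 a POLK-/- peak (37.2%, 34.8 to 39.6), against 38.1%. The 942 DDX23-/- members with no peak in either other list had a median enrichment of 9.26, against 22.4 for the 267 with a peak in both. The matching share of all DDX23-/- peaks is not given here, so these counts do not describe a trait of upstream peaks. The lists differ in length and depth, which cannot be told apart here from genotype.

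Members with a small RNA sign were shared more often. In DDX23-/- 39 of 58 overlapped a wild-type peak (67.2%, 53.7 to 79.0), against 275 of 1517 without a sign (18.1%, 16.2 to 20.2). In POLK-/- the counts were 39 of 50 (78.0%, 64.0 to 88.5) against 228 of 592 (38.5%, 34.6 to 42.6). Signs went with higher enrichment, and the part of enrichment in this difference was not tested.

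At the 269 members that wild-type shared with POLK-/-, the median ratio of enrichment, POLK-/- over wild-type, was 0.923 (0.801 to 1.02). It was over 1.5 at 63 of them (23.4%), against 23.5% of all shared peaks, and under 1/1.5 at 82 (30.5%), against 28.3%. Members with a sign had a median ratio of 1.47 (1.18 to 1.95, n = 41) and those without one 0.828 (0.737 to 0.926, n = 228). With the deposited fold in place of the enrichment, the median over all 269 was 1.20 (1.12 to 1.27), so its direction depended on the measure. The split by sign is given by enrichment only, here and for the ratios below. The lowest background in a list was 0.573 in wild-type, 0.92 in POLK-/- and 1.28 in DDX23-/-. Its part in the split was not tested.

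For DDX23-/- over wild-type the median was 1.14 (1.06 to 1.25, n = 319). It was over 1.5 at 105 members (32.9%), against 39.4% of all shared peaks, and under 1/1.5 at 41 (12.9%), against 13.3%. Members with a sign had 1.55 (1.21 to 2.04, n = 42) and the others 1.08 (1.00 to 1.21, n = 277). With the deposited fold the median was 1.61 (1.52 to 1.72). For DDX23-/- over POLK-/- it was 1.41 (1.34 to 1.49, n = 604), over 1.5 at 277 (45.9%), against 45.3%, and under 1/1.5 at 65 (10.8%), against 10.1%. There the members with a sign had a lower median, 1.05 (0.895 to 1.35, n = 49), than the others, 1.43 (1.36 to 1.53, n = 555).

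**Figure D5:**
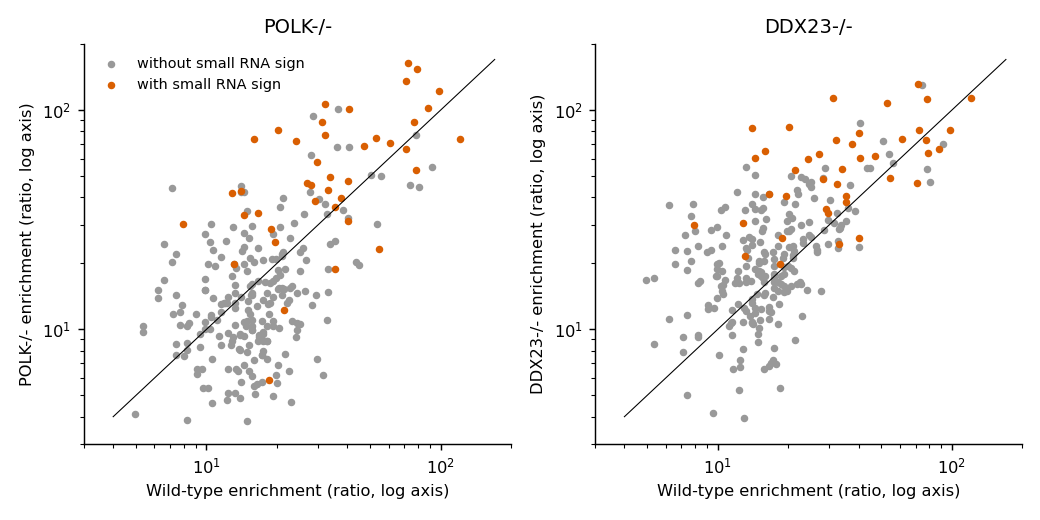
Enrichment over background (ratios, log axes) of the 268 wild-type upstream peaks with a peak in both other lists, POLK-/- against wild-type and DDX23-/- against wild-type, with the line of equal values. Points with a small RNA sign are orange. Of the 268 peaks, 55 were highest in POLK-/-, 139 in DDX23-/- and 74 in wild-type. By the deposited fold the counts were 55, 205 and 8, in the same order. The matching counts over all shared peaks are not given here, so this split does not describe a trait of upstream peaks.

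The largest ratios combined differences in fragments and in background. Fragments below are whole counts, while backgrounds are on the scale of the list. The enrichment is the count times the pileup scale (1.0 in wild-type, 0.73623 in POLK-/- and 0.65963 in DDX23-/-) over the background. ATP8A1, a phospholipid flippase gene, had an enrichment of 7.15 in wild-type (13 fragments over a background of 1.82) and 44.2 in POLK-/- (57 fragments, background 0.95), a ratio of 6.18. In DDX23-/- it was 7.92, so it was also lowest among DDX23-/- over POLK-/-, at 0.179. GLRX3, a glutaredoxin gene, had 3.53 in POLK-/- (24 fragments over a background of 5.0) and 35.6 in DDX23-/- (74 fragments over 1.37), a ratio of 10.1. The counts behind these ratios were 13 to 74 fragments, and the part of counting error in them was not tested.

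Ratios were ranked among members with at least 20 fragments at the summit in the list where they were stronger. Without this limit the minimum was 0.197 for POLK-/- over wild-type and 0.293 for DDX23-/- over wild-type. Among POLK-/- over wild-type ratios, CFAP418 (4.64), DPP9 (4.02), ANG (3.80) and ZNF622 (3.70) followed ATP8A1, and the first 3 of these 4 had a tRNA neighbour. The ANG ratio is for its peak 853 bp upstream. Its stronger peak, 162 bp upstream, had 47.0 in wild-type and 68.8 in POLK-/-. The lowest within the limit were EZR (0.285), HNRNPAB (0.315), PRRC2A (0.385), HSPA6 (0.426) and GUSB (0.438), which encode among others ezrin, a membrane-cytoskeleton linker, and the lysosomal beta-glucuronidase. By the deposited fold these 5 ratios were 0.434, 0.498, 0.688, 0.746 and 0.791. For DDX23-/- over wild-type the highest were OSBPL8 (5.99), B4GAT1 (5.94), ETFB (4.77), COX10 (4.28) and OR1F1 (4.16), and the lowest SPC24 (0.583), ISLR2 (0.592), PRRC2A (0.629), CCDC107 (0.648) and HMGN4 (0.653). By the deposited fold the low end did not hold: SPC24 had 1.13, ISLR2 1.18, PRRC2A 1.08 and CCDC107 1.11, and HMGN4 alone stayed under 1, at 0.840. CCDC107 lies beside RMRP, the RNA of RNase MRP. For DDX23-/- over POLK-/- SPINDOC (7.70), HNRNPAB (6.29), SEC63 (5.25) and HS3ST3B1 (5.22) followed GLRX3, and EPHA7 (0.220), ABT1 (0.311) and HMGN4 (0.343) followed ATP8A1 at the low end. By the deposited fold ATP8A1 had 0.296, EPHA7 0.374, ABT1 0.477 and HMGN4 0.455.

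Of all 20176 protein-coding genes, 1.62% had an upstream peak in wild-type, 3.17% in POLK-/- and 7.71% in DDX23-/-. Shares within the listed gene groups are given against these and were not tested. Of 88 cytosolic ribosomal protein genes, 2 had one in wild-type (2.27%), 9 in POLK-/- (10.2%) and 12 in DDX23-/- (13.6%), and RPL23 was the 1 in all 3 lists. Of 48 proteasome genes 2 (4.17%), 6 (12.5%) and 10 (20.8%) had one, with PSMB2 and PSMB3 in all 3. Of 56 translation initiation factor genes 0, 8 (14.3%) and 10 (17.9%) did. Of 34 RNA polymerase subunit genes 1 (2.94%), 2 (5.88%) and 7 (20.6%) did, with POLR3E in all 3. Of 34 aminoacyl-tRNA synthetase genes 0, 2 (5.88%) and 6 (17.6%) did.

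Of 555 zinc finger genes 10 (1.80%), 16 (2.88%) and 51 (9.19%) had an upstream peak, and 8 had one in all 3 lists (ZNF18, ZNF397, ZNF503, ZNF622, ZNF768, ZNF839, ZSCAN10 and ZSCAN30). Of 96 respiratory chain genes 4 (4.17%), 5 (5.21%) and 10 (10.4%) did, with COX5A and NDUFS7 in all 3. Of 78 mitochondrial ribosomal protein genes 2 (2.56%), 1 (1.28%) and 8 (10.3%) did, with MRPL55 in all 3. Of 64 replication-dependent histone genes 2 (3.13%), 2 (3.13%) and 5 (7.81%) did, with H2BC5 and H4C8 in all 3. Of 374 solute carrier genes 3 (0.802%), 15 (4.01%) and 22 (5.88%) did, with SLC19A2 and SLC35F5 in all 3. Of 57 DEAD-box and DEAH-box helicase genes 1 (1.75%), 4 (7.02%) and 5 (8.77%) did, and of 46 genes of DNA replication and translesion synthesis 0, 2 (4.35%) and 3 (6.52%). With peaks on either side of the start counted, the DDX23-/- share was 54.3% in this last group. It was 47.9% of proteasome, 39.8% of cytosolic ribosomal protein, 15.0% of solute carrier and 10.9% of histone genes, against 20.4% of all genes. For proteasome and cytosolic ribosomal protein genes, a share above that of all genes was thus not particular to upstream peaks.

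Several of these genes stood beside tRNA genes. NDUFS7, a complex I subunit gene next to a phenylalanine and an asparagine tRNA gene, had 37.4 in wild-type, 39.8 in POLK-/- and 69.7 in DDX23-/-. H4C8 next to the tRNA gene TRX-CAT1-2 had 33.0, 43.0 and 24.6. PSMB3, next to the asparagine tRNA gene TRN-GTT2-5, had 19.5, 25.0 and 40.7. Of 414 olfactory receptor genes, a family silent in most tissues, the same gene, OR1F1, was the 1 member in each list. It lies next to the proline tRNA gene TRP-TGG3-5 and had 14.5 in wild-type, 33.1 in POLK-/- and 60.2 in DDX23-/-. RPL23, which has no such sign, had 12.8, 8.47 and 8.14.

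The deleted genes were not members. A peak lay near the start of POLK in wild-type (enrichment 15.7) and DDX23-/- (9.57) and was classed as bidirectional, and none lay within 10 kb in POLK-/-. DDX23 had a peak within 10 kb in DDX23-/- alone, 649 bp downstream of its start (enrichment 8.08). A peak list cannot show whether either protein was lost.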

How the data were processed

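Peak lists of 3 HEK293T genotypes were used, 1 per genotype; 13 of the 16 libraries had no list here and were not analysed. The submitters' processing notes name Bowtie2, MACS2, bedtools and deepTools without versions, and build hg19. The study's methods give Bowtie2 with default settings and duplicate removal for its Pol κ ChIP-Seq; whether they hold for these lists, and the control, threshold and pooling, are not given in the sources used here. Names inside the lists carry library numbers that differ from the sample numbers for wild-type and DDX23-/-, so which library of a genotype was used is uncertain. The deposited values per peak were a score, a fold over local background (a ratio with 1 added to both terms), and −log10 p and −log10 q.

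Fragments at the summit and background were recovered by the MACS2 formulas, with a pileup scale of 1.0 for wild-type, 0.73623 for POLK-/- and 0.65963 for DDX23-/-; all members were recovered, as were 5941 of the 5945 DDX23-/- peaks and every peak of the other lists. The recovery was checked on values simulated with the same formulas, which tests the inversion and not whether the deposited values follow them. The weakest member had 7, 12 and 14 fragments. Gene starts were the 20176 protein-coding starts of GENCODE lifted to GRCh37. RefSeq (GRCh38.p14) gave small RNA neighbours by gene name only, for 315 of 327, 622 of 640 and 1517 of 1556 member genes. Python 3.11.15, scipy 1.17.1 and pysam 0.24.0 were used.

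Shares have exact (Clopper-Pearson) and medians order-statistic 95% intervals. No test of genotype was possible. Members and gene lists were chosen with earlier results of these data known. The text names, per list, the 10 members with the smallest p, per pair the 5 highest and 5 lowest ratios with at least 20 fragments in the stronger list, members at the limits, group members in all lists, POLK and DDX23. Some items that this rule names are not reported here.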

Additional observations from a re-analysis of the deposited data

How the results depend on the processing

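There were 33 results and 117 alternative values; 70 stayed within the interval of the reported value and 47 moved out of it. The median POLK-/- over wild-type ratio, 0.923 with an interval that held 1, crossed to over 1 with the deposited fold and with equal list lengths. No paired analysis was possible because each genotype had 1 list and no test was run.

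Shares of members (wild-type, POLK-/-, DDX23-/-) were 24.9%, 29.4% and 31.1% with canonical transcript starts, which also gave a DDX23-/- median distance of 97.5 bp. A window of 500 bp gave 24.2% in POLK-/- and 24.8% in DDX23-/-. With 1468 peaks per list, DDX23-/- had 23.7% and a median distance of 99.5 bp. In 100 bp around the summit, median GC was 67.5%, 66.0% and 68.0%, tRNA-type sites 1.52%, 0.623% and 0.317%, SP/KLF 38.7%, 39.3% and 42.6%, and ETS 7.62%, 9.03% and 9.78%, shorter windows holding fewer matches. The looser A box, chosen after seeing the data, gave 12.8%, 8.72% and 5.84%, against 4.66% of all windows, and RefSeq neighbours, also added later, were at 11.0%, 5.92% and 2.41%. An lncRNA start within 500 bp was at 27.6% of POLK-/- and 26.7% of DDX23-/- members.

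Overlap under a reciprocal 50% rule was 71.3% (wild-type in POLK-/-), 75.6% (wild-type in DDX23-/-), 36.8% (POLK-/- in wild-type), 81.9% (POLK-/- in DDX23-/-), 15.2% (DDX23-/- in wild-type) and 32.5% (DDX23-/- in POLK-/-). With 1468 peaks per list the same 6 were 66.2%, 64.6%, 58.0%, 69.5%, 59.2% and 71.0%. At a q of 1e-05 or less, DDX23-/- gave 17.7% in wild-type and 34.1% in POLK-/-. Median enrichment ratios with 1468 peaks per list were 1.05 (POLK-/- over wild-type), 1.41 (DDX23-/- over wild-type) and 1.56 (DDX23-/- over POLK-/-), and with the deposited fold 1.20 and 1.61 for the first 2. Causes of these shifts were not tested, other than fewer peaks or shorter windows by construction. With 7 fragments in the weakest member, depth limits single ratios.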
